A study of Mus musculus with 4 samples.

Results

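The genes described here are 10 genes of the calcium, calcineurin and NFAT pathway: the calcium entry genes Stim1 and Orai1, the calcineurin catalytic subunit genes Ppp3ca, Ppp3cb and Ppp3cc, the calcineurin inhibitor gene Rcan1 and the NFAT factor genes Nfatc1, Nfatc2, Nfatc3 and Nfat5. They were taken by gene symbol from a table of 24984 genes, and all 10 were found in it. The table came from TTchem-seq, in which cells take up 4-thiouridine for a short pulse and the labelled RNA is fragmented, enriched and sequenced, so that fragments from introns and exons alike report how much a gene is being transcribed. The cells were double positive (DP) thymocytes, the stage of T cell development that carries both CD4 and CD8. There were 2 libraries from Tox4 F/F mice (WT) and 2 from Tox4 F/F mice with Lck-Cre (cKO), all from mice of 6 to 8 weeks of age. Both genotypes carried the floxed Tox4 alleles on a C57BL/6 background, and in cKO mice the Cre recombinase, driven by the proximal Lck promoter, removes exons 4 to 6 of Tox4 from an early thymocyte stage on. The controls carried no Cre, so effects of Cre itself and of Tox4 loss cannot be told apart. How the DP cells of these libraries were purified is not given in the sources used here, and they were cultured for a short time before labelling.

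In T cells, an engaged T cell receptor leads to release of calcium from the endoplasmic reticulum through IP3 receptors. STIM1 senses the emptied store and opens the plasma membrane channel ORAI1, and calcium with calmodulin then activates the phosphatase calcineurin, which is a pair of a catalytic A subunit and a regulatory B subunit. Calcineurin strips phosphates from the NFATc factors, which enter the nucleus and act on genes together with other factors, while kinases such as GSK3 and DYRK1A send them out again. NFAT5 is a relative that answers to osmotic stress and is not controlled by calcineurin. In thymocytes the pathway is known for its part in positive selection, the step at which DP cells with a useful receptor survive and mature.

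The libraries held between 38429786 and 48690591 fragments, and 11625 genes reached a mean of 1 CPM (a gene's fragments scaled to the library's total) and are called expressed below. Tox4 itself lay at 74.04 and 70.3 CPM in WT and at 59.3 and 57.2 CPM in cKO, in the direction the labels require, and this count covers the whole locus and not the deleted exons alone. One WT library stood apart. WT replicate 1 held 172 CPM of Xist and no other library more than 2.36 CPM, and the Y-linked gene Ddx3y was at 0.164 CPM there against at least 54.01 CPM elsewhere, so WT replicate 1 came from a female and the others from males, although matched sexes were described. None of the 10 genes is on a sex chromosome, and a difference by sex was not tested. The median of the 10 genes without WT replicate 1, and the genes whose sign then changed, are given with the results. Of the cell types checked, all 9 DP markers were expressed, and their summed level was 3031 to 3693 CPM in WT and 2879 to 3111 CPM in cKO. By the DESeq2 criteria given below, 2 of them (Cd8a and Rag1) were decreased, as were 1.57% of all expressed genes. Rag1 lay at the threshold (DESeq2 adjusted p-value 0.0499). Its WT libraries (918 and 1169 CPM) were farther apart on the log2 scale than its genotype means (882 and 802 CPM in the cKO libraries). The 6 markers of mature single positive cells summed to 502.0 to 508 CPM in WT and 438 to 509 CPM in cKO, Il7r was increased and Ccr7 decreased among those reported, and the part of either list in the results was not tested. In such bulk libraries, fewer cells of a type and less RNA per cell cannot be told apart. The 4 B cell, 4 myeloid, 4 erythroid and 4 thymic epithelial markers summed to at most 5.18, 11.2, 0.465 and 1.13 CPM in any library, and Psmb11 of thymic epithelium was at 0 in all 4.

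Rcan1, the calcineurin inhibitor gene, and Nfatc2 have 2 annotated starts each, and each gene has 1 count that adds them up. The start that lies inside Rcan1 gives the shorter RCAN1 isoform, which is known as a target of NFAT and thereby as a feedback on calcineurin. The 250 bases before both Rcan1 starts and both Nfatc2 starts are shown because, among the listed genes, these have a start with 3 copies of the NFAT core before it and another start with fewer, a choice made after the copies were counted. The sequences are from RefSeq (GRCm38.p6) and read 5′ to 3′ on the minus strand, the strand of both genes, with the NFAT core GGAAA or its reverse complement TTTCC in capitals.
Rcan1, outer start, chr16:92466170-92466419: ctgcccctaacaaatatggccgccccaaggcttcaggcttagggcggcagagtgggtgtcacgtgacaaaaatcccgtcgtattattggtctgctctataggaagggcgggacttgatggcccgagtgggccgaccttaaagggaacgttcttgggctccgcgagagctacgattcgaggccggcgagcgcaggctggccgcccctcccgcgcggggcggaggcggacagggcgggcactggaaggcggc
Rcan1, inner start, chr16:92400079-92400328: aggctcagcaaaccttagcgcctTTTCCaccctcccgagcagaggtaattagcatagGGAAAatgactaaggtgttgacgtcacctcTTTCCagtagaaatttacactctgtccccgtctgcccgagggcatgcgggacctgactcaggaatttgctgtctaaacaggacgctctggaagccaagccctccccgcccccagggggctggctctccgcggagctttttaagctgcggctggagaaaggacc
Nfatc2, outer start, chr2:168601658-168601907: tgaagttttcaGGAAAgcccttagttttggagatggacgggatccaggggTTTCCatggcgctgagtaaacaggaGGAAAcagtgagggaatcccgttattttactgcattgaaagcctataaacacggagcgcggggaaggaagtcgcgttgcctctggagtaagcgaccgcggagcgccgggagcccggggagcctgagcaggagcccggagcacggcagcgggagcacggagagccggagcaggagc
Nfatc2, inner start, chr2:168590366-168590615: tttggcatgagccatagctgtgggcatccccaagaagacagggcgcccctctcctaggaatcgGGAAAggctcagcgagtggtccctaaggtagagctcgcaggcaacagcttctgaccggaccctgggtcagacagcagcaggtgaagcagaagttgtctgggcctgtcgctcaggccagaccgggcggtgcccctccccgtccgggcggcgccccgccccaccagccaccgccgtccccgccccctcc
The inner Rcan1 start had 3 copies of the core and the outer start had 0, while the outer Nfatc2 start had 3 and the inner start 1. The core is short and common: of 32851 windows of the same length before RefSeq starts, 55.6% held at least 1 copy on either strand and 6.39% held 3 or more. Starts of 7 of the 10 genes were listed, and 6 of their 10 windows held the core. The windows of the 2 Nfatc3 starts, not shown, held 1 and 0 copies. A match is a description of the letters and not a site of binding.

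The pathway genes are long. Their counted spans ran from 15379 bp for Orai1 to 267662 bp for Ppp3ca, with a median of 80134 bp against 22650 bp over all expressed genes. Exons of the RefSeq annotation made up between 1.81% of the span (Ppp3ca) and 15.6% (Nfat5), so most of each count could come from introns. In GRCm38 coordinates, Stim1 lies on chromosome 7 from 102267819 to 102437318 and Orai1 on chromosome 5 from 123015074 to 123030452, both on the plus strand. Ppp3ca lies on chromosome 3 from 136670066 to 136937727 on the plus strand, and Ppp3cb (20499364 to 20546573) and Ppp3cc (70217865 to 70289497) lie on the minus strand of chromosome 14. Rcan1 lies on the minus strand of chromosome 16 from 92391951 to 92466169. Nfatc1 is on chromosome 18 (80606205 to 80713071, minus strand), Nfatc2 on chromosome 2 (168476410 to 168601657, minus strand), and Nfatc3 (106058818 to 106130537) and Nfat5 (107293470 to 107379517) on the plus strand of chromosome 8. Only Ppp3cb overlapped another gene of the table, 1810062O18Rik on the opposite strand, and none overlapped a gene on its own strand.

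Levels of different genes were compared as CPM per kb of the counted span. Per kb, the order in WT was Nfatc3, Nfatc1, Orai1, Stim1, Ppp3cb, Nfatc2, Nfat5, Ppp3ca, Rcan1 and Ppp3cc. Nfatc3 stood first with 9.31 ± 0.232 CPM per kb (SD, n = 2) in WT and 9.04 ± 0.0611 in cKO, and its mean over all 4 libraries was above that of 93.7% of expressed genes. Nfatc1, Orai1 and Stim1 followed close together at 3.48, 3.19 and 3.16 CPM per kb in WT, and the 2 WT libraries of Orai1 and Stim1 overlapped. All other neighbours in the order were apart in the WT libraries. Ppp3cc stood last at 0.123 ± 0.0137 CPM per kb in WT, with a mean over all 4 libraries above that of 8.89% of expressed genes. In cKO the order of mean levels was the same, except that Stim1 (3.05 CPM per kb) stood before Orai1 (2.82 CPM per kb).

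**Figure D1:**
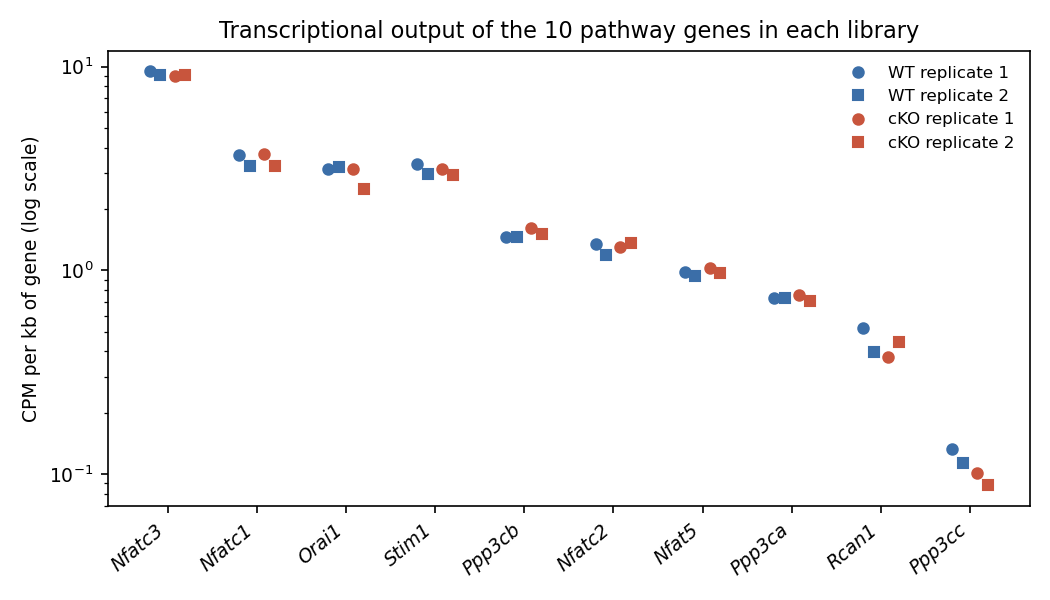
Transcriptional output of each of the 10 genes as CPM per kb of counted span (y axis, log scale), 1 point per library, with WT in blue, cKO in red, replicate 1 as circles and replicate 2 as squares. The genes are ordered by their WT mean, from 9.31 for Nfatc3 to 0.123 for Ppp3cc, and the points of the genotypes lie within or next to each other for every gene.

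To ask whether Tox4 loss altered the output of these genes, cKO was compared with WT by the DESeq2 Wald test over the whole table, and an expressed gene was called when it changed by 1.2-fold or more with an adjusted p-value below 0.05. All 10 genes were expressed. None of the 10 was called, where 3.71% of the 11625 genes were (2.14% increased, 1.57% decreased). An unadjusted DESeq2 p-value under 0.05 was found for 0 of the 10, against 13.5% of all genes, and edgeR and limma voom called 0 of them as well. The log2 fold changes (cKO over WT) ran from -0.38 for Ppp3cc to 0.09 for Ppp3cb, with a median of -0.022 against 0.00088 over all genes, and 4 genes were higher and 6 lower. The 95% interval of the change lay inside a 1.2-fold change in either direction for 6 genes, Stim1, Ppp3ca, Nfatc1, Nfatc2, Nfatc3 and Nfat5, a property held by 17.5% of all genes. Genes with many fragments have narrow intervals, and these 6 rested on at least 3302 fragments per library. For Orai1, Ppp3cb, Ppp3cc and Rcan1 the interval reached beyond 1.2-fold on 1 side, so a change of that size lies within the error of these values.

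**Figure D2:**
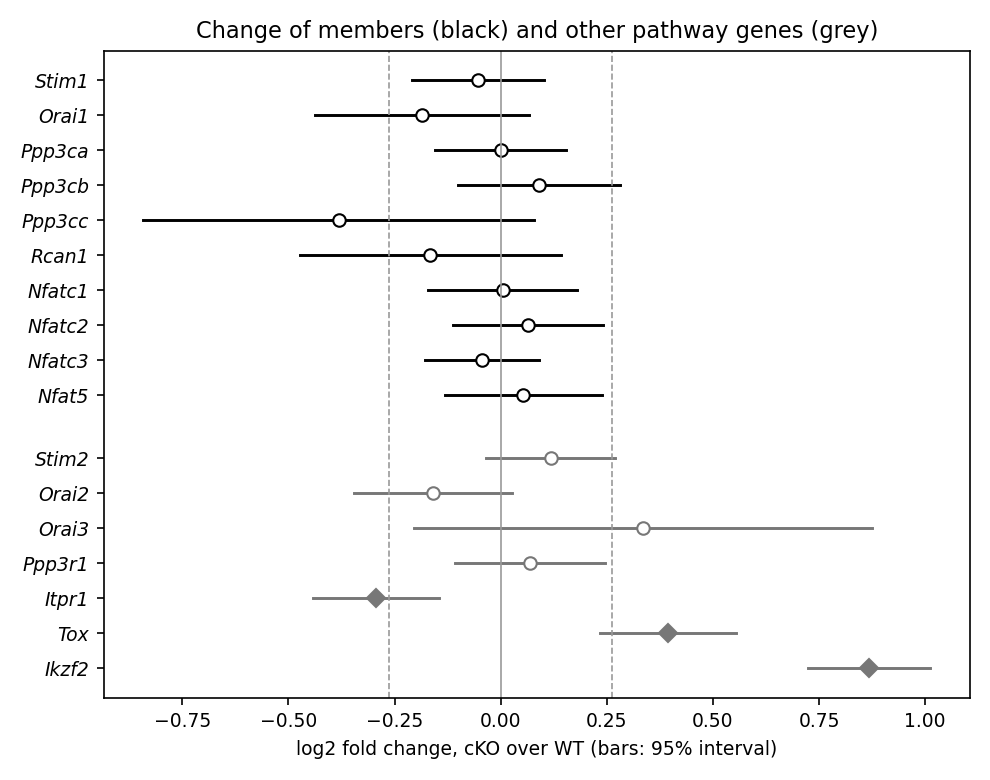
Log2 fold change of cKO over WT (x axis) with its 95% interval for the 10 genes (black) and for 7 other genes of the pathway (grey), open circles for genes that were not called and filled diamonds for called genes; dashed lines mark a 1.2-fold change. The bars of 6 of the 10 genes lie between the dashed lines, the bar of Ppp3cc is the widest of the 10, and Itpr1, Tox and Ikzf2 are the called genes shown.

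Among the calcium entry genes, Stim1, the sensor of stored calcium, had 564 and 506 CPM in WT and 536 and 497 CPM in cKO. The genotypes overlapped, with replicate 1 the higher library in each. Its log2 fold change was -0.05 (SE 0.0794, DESeq2 adjusted p-value 0.855), with a 95% interval from -0.21 to 0.10. Orai1, the pore of the store-operated channel, had 48.5 and 49.7 CPM in WT and 48.2 and 38.4 CPM in cKO. Both cKO libraries were below both WT libraries, but cKO replicate 1 was only just below, and the gap lay in cKO replicate 2. The log2 fold change of Orai1 was -0.18 (SE 0.129, DESeq2 adjusted p-value 0.577), moving to -0.35 when cKO replicate 1 was left out and to -0.033 when cKO replicate 2 was.

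Calcineurin has 3 catalytic A subunits, of which the alpha and beta forms are the ones known from lymphocytes and the gamma form is best known from testis. Ppp3ca, the alpha form, had 195 and 196 CPM in WT and 202 and 190 CPM in cKO. Its WT libraries lay between its cKO libraries, and the log2 fold change was 0.00 (SE 0.0791, DESeq2 adjusted p-value 1.0; 95% interval from -0.16 to 0.15). Ppp3cb, the beta form, had 69.1 and 68.4 CPM in WT and 75.8 and 70.9 CPM in cKO. The cKO libraries were above the WT libraries, and the log2 fold change was 0.09 (SE 0.0977, DESeq2 adjusted p-value 0.783; 95% interval from -0.10 to 0.28). Ppp3cc, the gamma form, had 9.52 and 8.13 CPM in WT and 7.26 and 6.31 CPM in cKO, from 251 to 406 fragments per library. It was lower in both cKO libraries and had the largest log2 fold change of the 10 genes, -0.38 (SE 0.235, DESeq2 adjusted p-value 0.502; 95% interval from -0.84 to 0.08). Ppp3cc was also the 1 gene of the 10 whose difference between genotype means was larger than the gap between replicates in both genotypes, which 35.3% of all genes showed.

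Rcan1, which binds calcineurin and restrains it, had 38.6 and 29.4 CPM in WT and 27.8 and 32.9 CPM in cKO. Its genotypes overlapped and its WT libraries were the farthest apart of the 10 genes, by 0.39 on the log2 scale. The log2 fold change was -0.17 (SE 0.157, DESeq2 adjusted p-value 0.736; 95% interval from -0.47 to 0.14). It was 0.035 without WT replicate 1 and -0.039 without cKO replicate 1, but -0.34 without WT replicate 2 and -0.30 without cKO replicate 2. The count covers the whole span of Rcan1, and transcripts from the inner start shown above cover only a part of that span. A shift between the starts could therefore change the count, and it cannot be told apart from a change of level.

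All 4 NFAT factor genes had intervals within a 1.2-fold change, and that of Nfatc3 was the narrowest of the 10 genes. Nfatc3, an NFATc factor with a known role in thymocyte selection, had 679 and 656 CPM in WT and 645 and 651 CPM in cKO. The cKO libraries were below the WT libraries, by less than the gap between the WT libraries, and the log2 fold change was -0.04 (SE 0.0684, DESeq2 adjusted p-value 0.861; 95% interval from -0.18 to 0.09). Nfatc1, which many T cells increase through NFAT itself, had 396 and 348 CPM in WT and 399 and 348 CPM in cKO. Replicate 1 of Nfatc1 was higher than replicate 2 in both genotypes, and the genotypes were nearly superimposed, at a log2 fold change near 0.00 (SE 0.09, DESeq2 adjusted p-value 0.992; 95% interval from -0.17 to 0.18). Nfatc2, the main NFATc factor of resting mature T cells, had 169 and 149 CPM in WT and 162 and 170 CPM in cKO, which overlap, and its log2 fold change was 0.06 (SE 0.09, DESeq2 adjusted p-value 0.845; 95% interval from -0.11 to 0.24). Nfat5 had 84.2 and 80.2 CPM in WT and 87.9 and 83.1 CPM in cKO, also overlapping, and its log2 fold change was 0.05 (SE 0.0939, DESeq2 adjusted p-value 0.882; 95% interval from -0.13 to 0.24).

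Over the 10 genes, the libraries of the genotypes did not overlap for 4 (Ppp3cb higher in cKO, and Orai1, Ppp3cc and Nfatc3 lower), and 48.9% of all genes had libraries that did not overlap. Without WT replicate 1, the female library, 6 of the 10 genes were higher in cKO with a median of 0.026 on the log2 scale, and none was called. Signs changed without that library for Stim1, to 0.018, and for Rcan1. The genes whose pattern over the 4 libraries was closest to that of Ppp3cc were Coro7, Slfn1 and Plekha7, with Euclidean distances of 0.032, 0.0438 and 0.0466 in centred log2(CPM + 0.5). Patterns of 4 libraries are easily matched, and 33 genes lay within 0.1 of Ppp3cc.

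**Figure D3:**
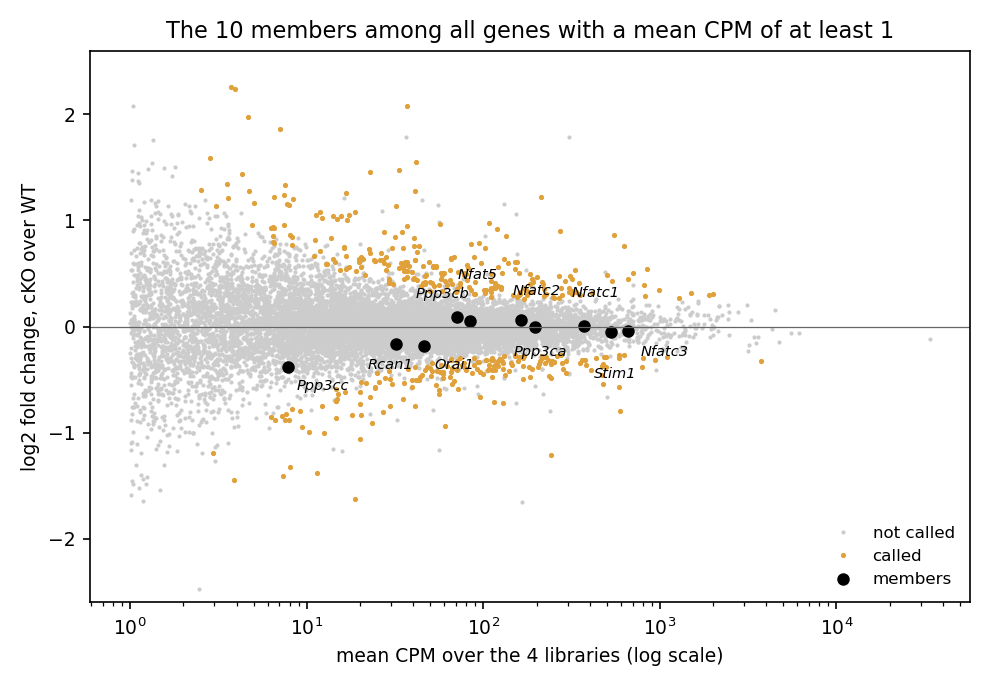
Log2 fold change of cKO over WT against mean CPM (log scale) for all expressed genes, with called genes in orange, genes not called in grey and the 10 genes as labelled black points; 2 genes lie outside the y axis. The 10 genes spread over levels from 7.81 to 658 CPM and all lie among the grey points.

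Members of a gene family were also set against each other within each library, as shares of the summed CPM per kb of the family, which do not depend on the scaling between libraries. An exact two-sided permutation test of 2 against 2 libraries cannot give a p-value under 0.333, so these shares are given with their spread. Nfatc3 took 61.1% and 63.0% of the NFAT output in WT and 59.8% and 62.0% in cKO, Nfatc1 between 22.2% and 24.8%, Nfatc2 between 8.17% and 9.26% and Nfat5 between 6.31% and 6.79% over the 4 libraries. The WT and cKO shares overlapped for Nfatc1, Nfatc2 and Nfatc3. Those of Nfat5 did not, at 6.31% and 6.42% in WT and 6.79% and 6.58% in cKO (exact permutation p-value 0.333). Of the NFAT genes that calcineurin controls, Nfatc4 was counted at 0 in all 4 libraries.

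The calcineurin catalytic output was led by Ppp3cb, with 63.0% and 63.1% in WT and 65.2% and 65.3% in cKO. Ppp3cc held 5.72% and 4.94% in WT and 4.12% and 3.83% in cKO, and Ppp3ca held 31.6% ± 0.449 in WT and 30.8% ± 0.118 in cKO (SD, n = 2). All 3 shares were apart between the genotypes, which by itself fixes each exact permutation p-value at 0.333, the smallest the design allows. The shares of a family add up to a whole, so these are not 3 separate observations. In CPM, 48.9% of all expressed genes had libraries that did not overlap between the genotypes. Stim1 held 63.7% and 61.4% of the Stim output in WT and 61.4% and 58.2% in cKO, with Stim2, the sensor of smaller store changes, making up the rest. Orai1 held 36.0% and 35.6% of the Orai output in WT and 34.8% and 32.8% in cKO. Orai2, a partner that forms mixed channels with Orai1, was the most strongly transcribed per kb of its family, at 50.2% to 54.5%, and Orai3 held 9.93% and 11.2% in WT against 13.5% and 15.0% in cKO. Orai3 was counted at 4.81 to 7.21 CPM, and its log2 fold change was 0.34 (SE 0.276, DESeq2 adjusted p-value 0.673), moving to 0.13 when cKO replicate 1 was left out and to 0.52 when cKO replicate 2 was.

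**Figure D4:**
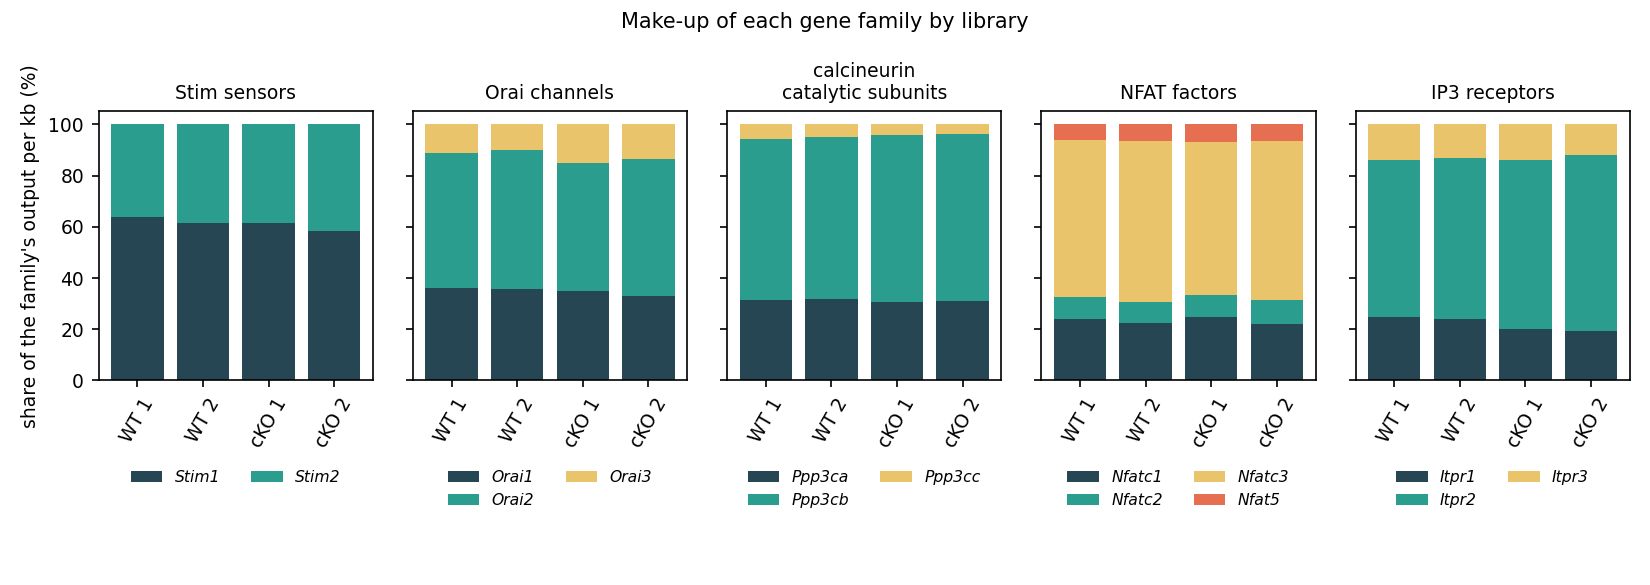
Share of each gene in the summed CPM per kb of its family (y axis, percent), as stacked bars for the 4 libraries and 5 families. Nfatc3, Ppp3cb, Stim1, Orai2 and Itpr2 hold the largest share of their families in every library, and the share of Itpr1 is lower in both cKO libraries (20.2% and 19.2%) than in both WT libraries (24.7% and 24.1%).

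Of 60 other genes of the pathway, in 5 lists, 49 were expressed and 3 were called, Itpr1, Tox and Ikzf2, where 3.71% of all expressed genes were. In the list of calcium release, entry and clearance, 0 of 16 genes were increased, 1 was decreased and 15 were not called, with 8 higher and 8 lower and a median log2 fold change of 0.013. The decreased gene was Itpr1, which encodes an IP3 receptor, the channel that releases stored calcium. The span of Itpr1 also holds the microRNA gene Mir7661 on the same strand. Itpr1 had 932 and 839 CPM in WT and 740 and 707 CPM in cKO, lower in both cKO libraries. Its log2 fold change was -0.29 (SE 0.0753, DESeq2 adjusted p-value 0.00485), but the adjusted p-value was 0.117 with edgeR and 0.106 with limma voom, and Itpr1 was not called without WT replicate 1 or without either cKO library. The other IP3 receptor genes were not called: Itpr2, at 2543 to 2956 CPM, had a log2 fold change of 0.14 (DESeq2 adjusted p-value 0.340) and Itpr3 of -0.06 (DESeq2 adjusted p-value 0.886). Stim2 (log2 fold change 0.12) and Orai2 (-0.16) were not called, with DESeq2 adjusted p-values of 0.548 and 0.484.

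Among calcineurin partners and regulators, 0 of 9 expressed genes were called, and their median log2 fold change was 0.013. The single calcineurin B subunit gene of this list, Ppp3r1, had 142 and 133 CPM in WT and 138 and 151 CPM in cKO, and its log2 fold change was 0.07 (SE 0.0899, DESeq2 adjusted p-value 0.825). Rcan2 and Akap5 were below a mean CPM of 1. Among NFAT kinases and partners, 0 of 11 genes were called, with a median of -0.0019 and a range from -0.15 to 0.12, and Nfatc4 and Homer2 were below a mean CPM of 1.

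Of 13 genes listed as NFAT targets, 8 were expressed, 2 were increased and 0 were decreased (2.14% and 1.57% of all expressed genes), and the median log2 fold change was 0.041. The list was written with earlier results of these data known, so the count of called genes is not a test of NFAT targets. The cytokine genes Il2, Il4 and Ifng and the early genes Egr2 and Egr3, which respond to strong receptor signals, were below a mean CPM of 1 in these cells. Nr4a1, another early gene of the list, was expressed, at 64.0 and 69.8 CPM in WT and 61.5 and 69.7 CPM in cKO, and was not called. Ikzf2, which encodes the zinc finger factor Helios, had 406 and 372 CPM in WT and 721 and 702 CPM in cKO. Its cKO libraries were far above its WT libraries, and the log2 fold change was 0.87 (SE 0.0736), at an adjusted p-value of 4.63e-28 with DESeq2, 0.00911 with edgeR and 0.00949 with limma voom. When edgeR also fitted the replicate number, the adjusted p-value was 0.0558 and Ikzf2 was not called. Tox, a paralog of Tox4 and a factor of CD4 T cell development, had 683 and 728 CPM in WT and 992 and 868 CPM in cKO. Its log2 fold change was 0.39 (SE 0.0814, DESeq2 adjusted p-value 1.41e-04), and its adjusted p-value was 0.104 with edgeR and 0.0986 with limma voom. Tox was not called without cKO replicate 1. Both genes are known to answer to several pathways besides NFAT.

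Fasl, the gene of a death receptor ligand, was not called but was set apart by 1 library and was named after its values were seen. It was at 19.5 and 13.4 CPM in WT, at 108 CPM in cKO replicate 1 and at 5.58 CPM in cKO replicate 2, so that the 2 cKO libraries lay on opposite sides of the WT libraries. Of 7 targets of NFAT5, 5 were expressed and 0 were called, with 1 higher and 4 lower and a median log2 fold change of -0.17. Of these, 3 (Akr1b3, Slc6a6 and Slc5a3, all lower in cKO) had an unadjusted DESeq2 p-value under 0.05, as 13.5% of all expressed genes did, and their DESeq2 adjusted p-values were 0.233, 0.213 and 0.163.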

How the data were processed

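The authors used fastp 0.13.1 on the reads and STAR 2.7.9a for alignment to GRCm38 and marked duplicates, and the submitters' processing notes also name featureCounts 1.6.1. The deposited table held expected counts, fragments per gene with 8.61% of values fractional, beside gene lengths that for the 10 genes equalled the full transcript spans. How shared fragments were split and whether duplicates were removed is not given in the sources used here. The labels describe poly(A) capture and the methods rRNA depletion for these libraries. No spike-in scaling was used, so a change of total output cannot be seen.

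Counts were rounded and fitted over all genes with DESeq2 1.42.0 (Wald test, default size factors, Benjamini-Hochberg adjustment, filtering target 0.1), the method the study states. Intervals are the log2 fold change with its standard error under a normal distribution at 95%. Alternatives were edgeR 4.0.16 (quasi-likelihood) and limma 3.58.1 (voom), both on the expressed genes (mean CPM 1 or more), and those of the closing section. Software was R 4.3.3, scipy 1.17.1, numpy 2.4.6, pandas 2.3.3, matplotlib 3.10.9 and Python 3.11.15. The fits were also run on simulated counts. These used the spread between replicates that DESeq2 had fitted, so they cannot tell which method suits these data. The 10 genes and the lists were chosen with earlier results of these data known. Named were the 10 genes, called genes of the other pathway lists, paralogs and partner subunits, Tox4, and the 3 genes closest (mean CPM 10 or more) to the member with the largest change. Fasl, Atp2b4, Nr4a1 and the NFAT5 targets Akr1b3, Slc6a6 and Slc5a3 fall outside this rule and were named after their values were seen. Listed genes below the CPM minimum and cell type markers are named with their counts. Fragments carry no molecular identifiers, and the methods describe replicates as biological. The 2 WT libraries, which differ in sex, came from different mice. The value of 1 marker gene is not reported here.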

Additional observations from a re-analysis of the deposited data

How the results depend on the processing

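None of the 10 genes was called with DESeq2 as described or in any of 17 alternatives, whose lowest adjusted p-value for any of them was 0.350 (Ppp3cc, edgeR). The sign of Ppp3ca turned with edgeR (0.00056), TMM factors (0.00052), total count factors (0.0028) and edgeR with the replicate block (0.00021), each next to 0, and that of Nfatc1 with a length trend removed (-0.049). The cause was not tested. Leaving out 1 library at a time gave log2 fold changes from -0.12 to 0.018 for Stim1, -0.038 to 0.040 for Ppp3ca, -0.090 to 0.097 for Nfatc1, -0.021 to 0.15 for Nfatc2, -0.34 to 0.035 for Rcan1, 0.021 to 0.090 for Nfat5, 0.050 to 0.13 for Ppp3cb, -0.064 to -0.028 for Nfatc3, -0.35 to -0.033 for Orai1, -0.49 to -0.27 for Ppp3cc, -0.23 to -0.089 for Orai2, 0.069 to 0.17 for Stim2 and -0.0057 to 0.14 for Ppp3r1, and medians of the 10 genes from -0.072 to 0.026. The median was -0.082 with a length trend removed and -0.020 with total count factors, and 3 to 6 genes were higher.

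The 3 calls among the other pathway genes fell to 1 (Ikzf2) with edgeR, with limma voom and at a 1.5-fold threshold, and to 0 with edgeR and the replicate block. With 1 library left out, 2 to 3 were called, the lone library being assumed to vary like the other group; Fasl was called without cKO replicate 1 and without cKO replicate 2, and Atp2b4 without WT replicate 1. The labels give no more than a shared replicate number, and deviations of libraries from their genotype means correlated at -0.03 between same numbers, although the share of fragments on the ribosomal RNA gene Rn45s followed the number (2.712% and 2.442% in replicate 1, 4.305% and 4.046% in replicate 2). The DESeq2 replicate block called 2 of them, Tox and Ikzf2 (adjusted p-value of Itpr1 0.0832). Over all genes, 431 calls became 62 with edgeR, 54 with limma voom, 150 at a 1.5-fold change, 193 with the DESeq2 replicate block, 1 with the edgeR replicate block and 89 to 446 with 1 library left out. Tox4 fell by 0.28 to 0.34 in every fit and was not called in 11 of 17 alternatives.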
